A study of Mus musculus with 6 samples.

Results

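The 9 genes described here encode the core proteins of perineuronal nets and related brain matrix: the lecticans aggrecan (Acan), brevican (Bcan), neurocan (Ncan) and versican (Vcan), the link proteins Hapln1, Hapln2 and Hapln4, and the tenascins Tnr and Tnc. They were taken by gene symbol from the feature lists of all 6 sections, where each of the 9 was found once, out of 19465 genes in all. Their levels were followed through the coronal mouse brain in spatial transcriptomes of 3 ages, to ask how each brain region differs between postnatal maturation, adulthood and old age. All mice were untreated male C57BL/6J, and each age had 2 sections from 2 mice. The sections were cut from tissue fixed in formalin and embedded in paraffin (FFPE). P21 mice (postnatal day 21) were bred in house, adult mice (12 to 15 weeks) came from Jackson Laboratory and aged mice (28 months) from the NIA. Sections of P21 and adult mice lay on the Visium version 1 slides themselves, whereas probes of aged sections were transferred to version 2 slides with the CytAssist instrument. The paper also describes the probe design of the aged libraries as enhanced. Counts were made with Space Ranger 2.0.0 for P21 and adult sections and with 3.1.1 for aged sections. Slide version, tissue transfer, probe design and Space Ranger version therefore cannot be told apart from age in aged vs. adult. Nor can the source of the animals in either comparison.

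Lecticans are chondroitin sulfate proteoglycans that bind the long sugar hyaluronan at one end and tenascins at the other, and link proteins fasten the bond to hyaluronan. Around the cell bodies of some neurons, parvalbumin interneurons above all, this mesh condenses into perineuronal nets as juvenile plasticity comes to a close. Related meshes built on versican, brevican and Hapln2 surround the nodes of Ranvier of myelinated axons, and a looser matrix rich in neurocan and tenascin-C fills the developing brain.

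Each Visium spot is a small disc of tissue that may hold several cells. The 20336 spots kept carried between 42422997 and 106783660 UMIs (unique molecules counted) per section, with a median per spot between 12074 and 25535. No spot labels were used here, so regions were rebuilt by clustering that left out the 9 genes, and clusters were named from marker panels. They comprised the cortex (CTX, 6600 spots), hippocampus (HP, 1935), thalamus (TH, 3320), hypothalamus (HY, 3430), striatum (STR, 1145), fiber tracts (FT, 1577) and reticular thalamus (RT, 237). In each named cluster 6 or more genes of its panel were raised, and all of them in the TH, STR, FT and RT. The UMIs of a gene were added up over the spots of a region in each section and are given as CPM, the count scaled to the depth of that sum with TMM factors. A sum over the RT held only 26 to 54 spots per section and 368479 to 1433779 UMIs. Because each gene was read by its own probes, levels are compared within a gene and never between genes.

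The share of all spots with at least 1 UMI was largest for Bcan, at 94.5% to 99.5% per section, and smallest for Acan, at 6.19% to 12.5%. Moran's I, the score of spatial clustering that the authors deposited for each gene, varied between sections. It lay between 0.126 and 0.602 for Hapln2, 0.112 and 0.497 for Tnc and 0.165 and 0.492 for Hapln4. For Bcan it lay between 0.105 and 0.185, and for Ncan between 0.0539 and 0.288. It stayed between 0.0127 and 0.0852 for Acan and between 0.0262 and 0.0745 for Vcan. By the highest score in any section, the most patterned of the genes were thus a link protein of myelinated axons, a tenascin and a second link protein. Their lowest scores lay within the ranges of Bcan and Ncan.

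Of the 9 genes, 6 lie in the genome as pairs of direct neighbours, each pair a lectican beside a link protein. In the mm10 build (GRCm38, GENCODE vM21), Bcan lies at chr3:87987531-88000230 and Hapln2 at chr3:88021750-88027583, both on the minus strand and 21519 bases apart. Hapln4 (chr8:70083457-70090862, plus strand) and Ncan (chr8:70093085-70120873, minus strand) are separated by 2222 bases. Hapln1 (chr13:89539796-89611652, plus strand) and Vcan (chr13:89655312-89742509, minus strand) are separated by 43659 bases. None of the 3 gaps held another protein-coding gene. Acan lies alone at chr7:79053483-79115099, Tnr at chr1:159523769-159931729, both on the plus strand, and Tnc at chr4:63959785-64047015 on the minus strand.

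The neighbours on chromosome 3, Bcan and Hapln2, moved in opposite directions in the fiber tracts at P21, as given further on. Their promoters are shown for that reason, as the 250 bases before the RefSeq start of each gene (GRCm38.p6, minus strand, chr3:88000357-88000606 for Bcan and chr3:88027512-88027761 for Hapln2), read 5′ to 3′ along the gene. Capitals mark the letters ACAAT on either strand, a core shared by SOX factors, and CAGCTG, an E-box that reads the same on both strands and overlaps no ACAAT here.
Bcan: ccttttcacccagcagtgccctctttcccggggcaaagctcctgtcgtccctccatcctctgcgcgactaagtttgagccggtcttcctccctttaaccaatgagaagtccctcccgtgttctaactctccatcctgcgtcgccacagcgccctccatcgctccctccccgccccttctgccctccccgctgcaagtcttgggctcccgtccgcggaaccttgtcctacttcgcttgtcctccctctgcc
Hapln2: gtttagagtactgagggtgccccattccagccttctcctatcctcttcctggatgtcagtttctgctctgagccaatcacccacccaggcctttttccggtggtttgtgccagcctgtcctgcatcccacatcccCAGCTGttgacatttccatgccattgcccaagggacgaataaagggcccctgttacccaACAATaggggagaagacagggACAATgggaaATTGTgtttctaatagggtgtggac
The Hapln2 window held ACAAT 3 times, beginning 56, 35 and 25 bases before the RefSeq start, and CAGCTG once, beginning 115 bases before it. The Bcan window held neither, and its GC content was 62.0% against 52.4%. By GENCODE, Hapln2 starts at 88027583, which lies inside its window. By that annotation the 3 ACAAT lie within the gene, and only CAGCTG lies before it. Among 32851 mouse promoter windows of the same length, 27.7% held ACAAT and 13.0% held CAGCTG, so a match is common and is given as a description of these letters alone. The RefSeq table matched 8 of the 9 genes, all but Hapln4.

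Across regions, each gene had its own map. Values in this and the next paragraphs are means ± SD over all 6 sections, so the SD includes age, and regions are described without a test. Among the lecticans, Acan, the main scaffold of the nets, was highest in the RT (19.7 ± 9.66 CPM), above every other region in 5 of 6 sections. The HP followed with 10.3 ± 3.54 CPM, and the other 5 regions averaged 2.87 to 5.52 CPM. Bcan, which astrocytes and oligodendrocyte-lineage cells secrete, was highest in the RT (447 ± 72.3 CPM) and FT (414 ± 120.2 CPM), and lowest in the CTX in 6 of 6 sections (235 ± 48.5 CPM). The FT led in both P21 sections and the RT in all adult and aged sections. Ncan, a lectican of the developing brain, was highest in the CTX (144 ± 45.1 CPM) and HP (144 ± 41.6 CPM), each of which led in 3 sections. Vcan, made by oligodendrocyte precursors among other cells, was highest in the FT in 6 of 6 sections (49.6 ± 19.0 CPM) and lowest in the CTX in 6 of 6 (14.7 ± 4.54 CPM).

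The 3 link proteins had different maps but shared high levels in the RT. Hapln1, the link protein of cortical nets, was highest in the RT in 5 of 6 sections (34.1 ± 9.38 CPM) and lowest in the TH in 6 of 6 (6.49 ± 4.07 CPM). Hapln2, which oligodendrocytes make for the nodes of Ranvier, was highest in the FT in 6 of 6 sections (248 ± 204 CPM), followed by the RT in 6 of 6 (98.7 ± 56.4 CPM). Hapln4, known from nets of the brainstem and thalamus, was highest in the RT in 6 of 6 sections (395 ± 74.4 CPM), next highest in the TH (200.3 ± 47.3 CPM), and lowest in the STR in 6 of 6 (51.8 ± 23.2 CPM). The TH was thus the lowest region of Hapln1 in 6 of 6 sections and, by its mean, the second of Hapln4. In aged replicate 1 the HP stood above the TH for Hapln4.

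The tenascins also differed in place. Tnr clasps lecticans together in the nets and is made by oligodendrocytes and some neurons. Its means over all 6 sections were close in the HP (172 ± 27.1 CPM), FT (169 ± 104 CPM) and STR (168 ± 38.7 CPM). These means hide a difference between ages. The FT was the highest region in both P21 sections (279 and 324 CPM) and the lowest in both aged sections (85.5 and 89.4 CPM). Tnc, a glial tenascin of the developing brain, was highest in the TH in 6 of 6 sections (35.0 ± 12.0 CPM), with the FT next at 12.4 ± 5.50 CPM. The maps of single spots show the same separation, with Hapln2 drawn along tracts, Hapln4 in the thalamus and cortex, and Tnc in the thalamus.

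**Figure D1:**
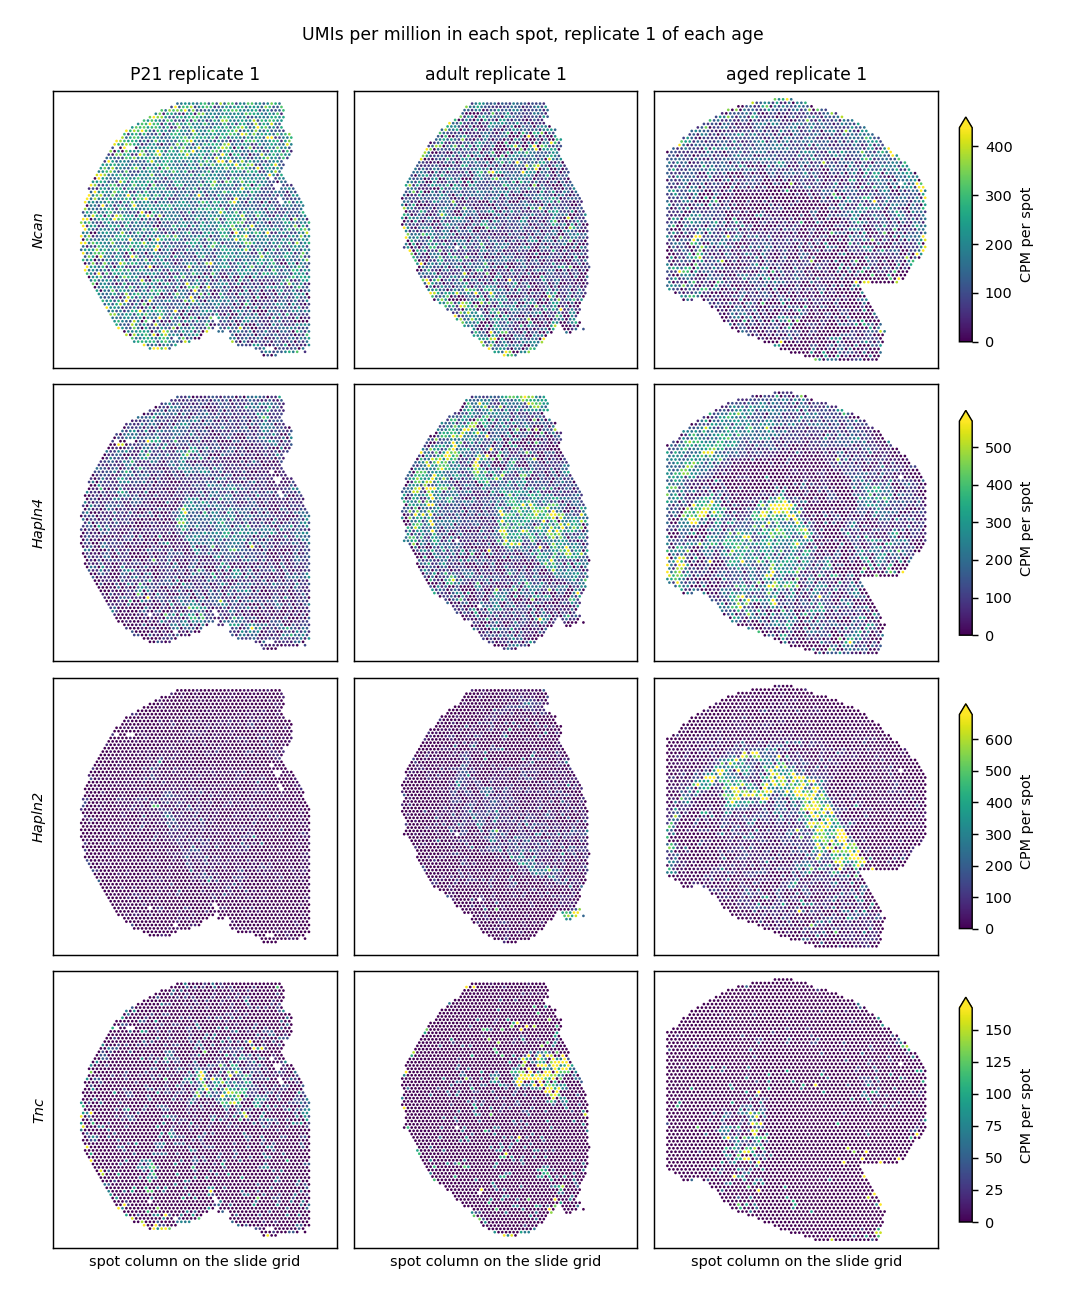
Maps of Ncan, Hapln4, Hapln2 and Tnc in replicate 1 of each age. Each dot is 1 spot at its place on the slide, coloured by CPM in that spot on a scale that ends at the 99th percentile, and sections lie as they did on the slides, the aged section turned. Hapln2 traces the fiber tracts, Tnc is concentrated in the thalamus, and Ncan is brightest at P21.

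P21 and aged sections were each compared with adult sections with edgeR (quasi-likelihood F test of the sums), and p-values were adjusted over all genes tested in a region (Benjamini-Hochberg). A gene is called higher or lower where the adjusted p was under 0.05 and the change over 1.5-fold. Errors of log2 fold changes are standard errors from the edgeR fit, with 2 sections per age, and not the spread of those 2 sections. Acan was detected in under 10% of all spots and was not tested in these fits. Both comparisons use the same 2 adult sections, so a high or low adult value enters both, and their results are set side by side without counting shared genes. In sums over spots, fewer cells of a type and less RNA per cell cannot be told apart.

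In P21 vs. adult, 31 of 56 tests of the 8 genes in 7 regions were called, 22 higher and 9 lower at P21. Over all genes, 5.61% of the tests of these regions were called, 3.53% higher and 2.08% lower. The genes were chosen with earlier results of these data known, so these counts describe the set and do not test it. The 22 higher calls belong to Ncan (6 regions), Vcan and Hapln1 (5 each), Tnr (3), Tnc (2) and Bcan (1), and the 9 lower calls to Hapln2 (5) and Hapln4 (4). No gene was called in both directions. The median log2 fold change of the tested genes lay between 0.28 in the HY and 0.90 in the FT, against -0.02 to -0.00 over all genes. By region, the FT, CTX and TH each had 6 of 8 tested genes called, where 9.32%, 4.75% and 7.11% of all genes were called. The HP had 5 of 8 (6.71% of all genes), the RT 3 (3.35%), the STR 3 (3.98%) and the HY 2 (3.92%). Every call of Ncan, Vcan, Bcan, Hapln1, Tnr and Tnc was thus higher at P21, and every call of Hapln2 and Hapln4 lower. Beside these changes, 4 erythrocyte genes summed to 703 to 2518 CPM per section in the 7 regions at P21, 64.9 to 427 CPM in adult and 79.6 to 347 CPM in aged sections, and the 3 of them that were tested were called higher at P21 in all 7 regions. Of the 4 genes of newly formed oligodendrocytes, 3 were tested, and Gpr17 and Enpp6 were called higher at P21 in all 7 regions, whereas Bcas1 was called lower in the RT alone. The part of these cells in the results was not tested. With 2 sections per age, values of P21 and adult sections did not overlap in 58.7% of the tests over all genes and regions, and those of aged and adult sections in 67.6%, so that a lack of overlap is common. With each section left out in turn, 27 of the 45 calls of both comparisons were kept throughout. A group left with 1 section is then assumed to vary like the others.

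Ncan was called higher at P21 than in adult in 6 of 7 regions, and lower in aged sections of the FT, HY and RT. In all 7 regions its P21 values lay above and its aged values below the adult ones, without overlap. Of the genes tested in all 7 regions, 5.44% lay higher at P21 in this way and 7.71% lower in aged sections. In the CTX it measured 205 and 195 CPM at P21, 124 and 124 CPM in adult and 114 and 98.4 CPM in aged sections, and the P21 and adult values did not overlap (P21 vs. adult, log2 fold change 0.69 ± 0.08, adjusted p = 0.000165). In the FT it measured 147 and 180.1 CPM at P21, 78.3 and 76.2 CPM in adult and 38.9 and 38.7 CPM in aged sections. The 3 ages lay apart there without overlap, higher at P21 (log2 fold change 1.07 ± 0.11, adjusted p = 1.73e-06) and lower in aged sections (log2 fold change -0.98 ± 0.13, adjusted p = 5.54e-06). The RT showed the same order, with 144 and 158 CPM at P21, 69.9 and 75.8 CPM in adult and 32.3 and 31.3 CPM in aged sections (log2 fold change 1.02 ± 0.17 (adjusted p = 8.57e-05) at P21 and -1.19 ± 0.20 (adjusted p = 2.33e-05) in aged sections). In the HY, 109 and 118 CPM at P21, 79.4 and 79.1 CPM in adult and 54.9 and 42.9 CPM in aged sections were measured, and the fall in aged sections was called (log2 fold change -0.71 ± 0.13, adjusted p = 0.00494), whereas P21 vs. adult stayed under 1.5-fold (log2 fold change 0.52 ± 0.12 (adjusted p = 0.0403)). P21 was also higher in the TH (log2 fold change 0.95 ± 0.10 (adjusted p = 0.000111)), STR (0.69 ± 0.11 (adjusted p = 0.00038)) and HP (0.64 ± 0.10 (adjusted p = 0.001)). Without P21 replicate 1 the adjusted p in the STR was 0.0532, without adult replicate 2 the change in the HP was 0.55, and without aged replicate 2 the change in the aged HY was -0.53, each no longer called. The P21 call in the RT was also lost with only the interior spots of regions (adjusted p = 0.619) and with all sums thinned to 1 depth (0.196).

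Vcan was higher at P21 in the CTX, HP, TH, STR and FT. The FT, its region of highest level, held 72.4 and 73.0 CPM at P21, 33.0 and 29.1 CPM in adult and 45.0 and 45.0 CPM in aged sections. The aged values lay between those of P21 and adult, without overlap (log2 fold change 1.23 ± 0.13, adjusted p = 1.64e-06 at P21). The aged difference from adult of 0.54 ± 0.13 (adjusted p = 0.00246) on the log2 scale stayed under 1.5-fold. In the CTX, 21.1 and 19.8 CPM at P21, 11.7 and 12.6 CPM in adult and 10.9 and 11.9 CPM in aged sections were measured (log2 fold change 0.76 ± 0.12, adjusted p = 0.000766 at P21), and adult and aged values overlapped. The HP held 28.7 and 27.8 CPM at P21, 14.8 and 14.0 CPM in adult and 20.5 and 17.4 CPM in aged sections, with P21 above both other ages (P21 vs. adult, log2 fold change 0.98 ± 0.15, adjusted p = 0.00106). In the STR the P21 sections measured 37.8 and 21.0 CPM and the adult sections 17.7 and 15.9 CPM. That call rests on P21 replicate 1, without which the log2 fold change was 0.32 (adjusted p = 0.706), and it was lost too without adult replicate 1 (0.0964) or 2 (0.171), with DESeq2 (0.17), with interior spots only (0.088) and with regions clustered in each section alone (0.0566). The call in the TH (log2 fold change 0.80 ± 0.15, adjusted p = 0.00371) was lost without adult replicate 2 (adjusted p = 0.0576). Summed CPM of 6 oligodendrocyte precursor genes in the FT were 393 and 457 CPM at P21, 250.2 and 299 CPM in adult and 304 and 314 CPM in aged sections, with 3 of 6 called higher at P21, and their part in the Vcan result was not tested.

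Bcan was called in a single region, the FT, where it measured 548 and 587 CPM at P21, 358 and 327 CPM in adult and 329.7 and 334 CPM in aged sections (log2 fold change 0.73 ± 0.10, adjusted p = 2.67e-05 at P21). Both P21 values lay above all others, and adult and aged values overlapped. In the CTX, 297 and 296 CPM at P21, 222 and 206 CPM in adult and 193 and 197 CPM in aged sections were measured, a P21 difference of 0.47 ± 0.07 (adjusted p = 0.000881) on the log2 scale that stayed under 1.5-fold. P21 values lay above adult values without overlap in all 7 regions, as they did for 5.44% of the genes tested in all 7, and no aged region was called.

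Acan, outside the filter on detection, is given by its levels. In the RT it measured 11.5 and 11.1 CPM at P21, 24.5 and 10.9 CPM in adult and 31.6 and 28.8 CPM in aged sections, from 4 to 45 UMIs per section, and the adult pair spanned the P21 pair. In the CTX it measured 5.18 and 4.14 CPM at P21, 4.39 and 4.29 CPM in adult and 5.37 and 5.41 CPM in aged sections, and P21 and adult values overlapped. The HP held 11.6 and 10.9 CPM at P21, 6.75 and 7.0 CPM in adult and 16.3 and 9.10 CPM in aged sections, and the adult values lay below all others. With the detection filter dropped, aged vs. adult was called in the HP (log2 fold change 0.85 ± 0.26, adjusted p = 0.0304) and no other of the 7 regions was called in either comparison with filterByExpr alone. With no filter beyond 1 UMI, Acan was also called higher at P21 in the HP (0.71 ± 0.22 (adjusted p = 0.0168), log2) and in aged sections of the RT (0.81 ± 0.30 (adjusted p = 0.0428)). The aged HP call with filterByExpr alone was lost without any 1 section other than aged replicate 2 (adjusted p 0.064 to 0.193).

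Hapln1 was higher at P21 in the CTX, HP, TH, STR and FT, and lower in aged than adult sections of the TH and HY. In the CTX it measured 27.8 and 27.7 CPM at P21, 14.4 and 14.2 CPM in adult and 12.5 and 10.1 CPM in aged sections (log2 fold change 0.96 ± 0.12, adjusted p = 0.000224 at P21), and the 3 ages did not overlap. In the FT it measured 16.8 and 17.9 CPM at P21, 8.06 and 8.01 CPM in adult and 10.00 and 6.57 CPM in aged sections (log2 fold change 1.10 ± 0.25, adjusted p = 0.00424 at P21), and adult and aged values overlapped. In the TH, its lowest region, 11.7 and 10.5 CPM at P21, 6.09 and 6.60 CPM in adult and 2.2 and 1.85 CPM in aged sections were measured, so that the 3 ages formed 3 steps without overlap. The lower of these steps, aged vs. adult, was its largest change (log2 fold change -1.64 ± 0.22, adjusted p = 0.000284) and was kept with each 1 section left out. The upper step (log2 fold change 0.81 ± 0.18, adjusted p = 0.00999) was lost without either P21 or either adult section (adjusted p 0.0589 to 0.139) and with DESeq2 (0.0681). The same was true of the call in the HP (log2 fold change 0.61 ± 0.16, adjusted p = 0.0239; 0.0784 to 0.306 without 1 of these 4 sections, 0.0691 with DESeq2). In the STR (log2 fold change 0.91 ± 0.23, adjusted p = 0.0189) it was lost without P21 replicate 1 (0.0803), P21 replicate 2 (0.139) or adult replicate 2 (0.202), and with DESeq2 (0.0628). With interior spots only, the P21 calls in the FT (adjusted p = 0.232), STR (0.156) and HP (0.0857) were lost, and with regions clustered in each section alone those in the STR (0.183) and HP (0.0621). Values in the HY were 12.8 and 10.8 CPM at P21, 12.8 and 10.8 CPM in adult and 6.38 and 8.36 CPM in aged sections, so that the P21 and adult pairs lay at the same level (log2 fold change 0.01 ± 0.20 (adjusted p = 0.985)). The aged call there (log2 fold change -0.65 ± 0.21, adjusted p = 0.0466) was kept under 1 of 15 alternatives. It was lost without any 1 section other than aged replicate 2 (log2 fold change -0.77 to -0.50) and with DESeq2 (adjusted p = 0.125). Plain CPM scaling (0.0638), a replicate block (0.077), thinned UMIs (0.0874) and interior spots only (0.168) lost it too. So did 20 principal components (0.216) and regions clustered in each section alone (0.228). Its neighbour Vcan was called higher at P21 in the same 5 regions as Hapln1.

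Hapln2 was lowest at P21, higher in adults and highest in aged sections in all 7 regions. Its change at P21 was largest in the HY and its change in aged sections in the FT. The extent of the HY differed between ages, with 671 and 578 spots at P21, 354 and 409 in adult and 596 and 822 in aged sections. Clustered in each section alone, the adult HY held 118 and 219 spots. In the FT it measured 80.3 and 82.6 CPM at P21, 152 and 159.7 CPM in adult and 515 and 500.5 CPM in aged sections. The 3 ages were far apart, with a fall at P21 (log2 fold change -0.94 ± 0.10, adjusted p = 3.1e-06) and a rise in aged sections (log2 fold change 1.71 ± 0.09, adjusted p = 2.41e-10), the smallest adjusted p among the 9 genes in any of the 7 regions and both comparisons. Among all genes in the FT, 29.1% were called in aged vs. adult, 13.6% higher. In the STR, 25.6 and 13.8 CPM at P21, 38.5 and 29.7 CPM in adult and 95.2 and 107 CPM in aged sections were measured, and only the aged rise was called (log2 fold change 1.56 ± 0.16, adjusted p = 1.22e-06; P21, -0.66 ± 0.22 (adjusted p = 0.0765)). In the TH, 27.7 and 29.1 CPM at P21, 47.2 and 45.4 CPM in adult and 75.8 and 76.9 CPM in aged sections were measured, again in 3 steps without overlap (log2 fold change -0.71 ± 0.09 (adjusted p = 0.000529) at P21 and 0.72 ± 0.09 (adjusted p = 0.000155) in aged sections). The RT held 45.3 and 49.8 CPM at P21, 74.4 and 93 CPM in adult and 139 and 190.5 CPM in aged sections (log2 fold change -0.86 ± 0.22 (adjusted p = 0.0199) and 0.96 ± 0.16 (adjusted p = 3.61e-05)). The HY held 15.1 and 17.4 CPM at P21, 49.4 and 45.4 CPM in adult and 68.0 and 93.3 CPM in aged sections (log2 fold change -1.55 ± 0.17 (adjusted p = 0.00182) and 0.78 ± 0.15 (adjusted p = 0.00715)), and the CTX 11.5 and 9.64 CPM at P21, 18.4 and 14.6 CPM in adult and 23.0 and 27.1 CPM in aged sections (log2 fold change -0.62 ± 0.15 (adjusted p = 0.011) and 0.60 ± 0.13 (adjusted p = 0.00285)). The HP kept the same order of ages, with 13.4 and 15.5 CPM at P21, 17.9 and 18.3 CPM in adult and 28.0 and 23.3 CPM in aged sections, and neither change passed 1.5-fold. Values of the 3 ages did not overlap in any of the 7 regions, and among the genes tested in all 7 regions 5.41% lay lower at P21 in all 7 without overlap and 8.49% higher in aged sections.

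Several of these calls rest on single sections. At P21, the Hapln2 call in the CTX was lost without P21 replicate 2 (adjusted p = 0.0572) or adult replicate 1 (0.111), that in the HY without either P21 section (0.0908 and 0.0547), and that in the RT without P21 replicate 1 (0.429) or adult replicate 2 (0.211). In aged sections, the call in the CTX was lost on size without adult replicate 2 (log2 fold change 0.44) or aged replicate 2 (0.47), and that in the HY without adult replicate 2 (adjusted p = 0.0512) or aged replicate 2 (log2 fold change 0.52). With regions clustered in each section alone, the P21 change in the HY was -0.25, and with only interior spots the P21 change in the FT was -0.52, both no longer called. The P21 call in the CTX was lost with interior spots only (adjusted p = 0.0617), and that in the RT with interior spots only (0.983) and with DESeq2 (0.288). The aged calls in the FT, STR, TH and RT were kept without any 1 section.

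The sum of 6 listed genes of mature oligodendrocytes (Mobp, Mog, Mal, Mag, Cldn11 and Ermn) was higher at P21 in the FT and CTX, where Hapln2 was lower. It was also higher in aged sections of the FT, as Hapln2 was. In the FT it was 24918 and 30624 CPM at P21, 13128 and 12283 CPM in adult and 19089.7 and 16961 CPM in aged sections, with 5 of 6 called higher at P21. The lowest P21 log2 fold change among the 6 was 0.02 in the FT and -0.42 in the HY. The paper lists Trf and Aspa beside Hapln2 among gliogenesis genes lower at P21 in the hypothalamus. In aged sections of the FT 2 of 6 were called higher and none lower. These 6 genes were not kept out of the clustering, so their levels may also bear on how the FT was drawn. In the CTX the same sum was 3310.2 and 3056 CPM at P21, 1489 and 1252 CPM in adult and 962 and 909 CPM in aged sections, with 5 of 6 called higher at P21 and 3 of 6 called lower in aged sections, where Hapln2 rose. Other lists moved in the aged FT: 6 microglial genes summed to 545 and 556 CPM at P21, 634 and 703 CPM in adult and 2073 and 2048 CPM in aged sections (5 of 6 called higher in aged sections), 4 reactive astrocyte genes to 564 and 661 CPM at P21, 935 and 988 CPM in adult and 6228 and 6149.8 CPM in aged sections (4 of 4 higher), and 6 pan-neuronal genes to 3724 and 3373 CPM at P21, 4106 and 3809 CPM in adult and 1816 and 1948 CPM in aged sections (4 of 6 lower). Their part in the results for Hapln2, Ncan and Tnc was not tested.

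Hapln4 was lower at P21 in the CTX, HP, TH and HY, and lower in aged sections of the STR. In the CTX it measured 114 and 91 CPM at P21, 212 and 198 CPM in adult and 152 and 178 CPM in aged sections (log2 fold change -0.99 ± 0.11, adjusted p = 6.43e-05 at P21), and the aged values lay between. In the HP it measured 100.1 and 89.2 CPM at P21, 177 and 198 CPM in adult and 268 and 192 CPM in aged sections (log2 fold change -0.98 ± 0.14, adjusted p = 0.00079 at P21), and adult and aged values overlapped. In the TH, 139 and 149 CPM at P21, 241 and 249.7 CPM in adult and 225 and 198 CPM in aged sections were measured (log2 fold change -0.77 ± 0.09, adjusted p = 0.000202 at P21). In the RT, its highest region, it measured 310.3 and 309.9 CPM at P21, 403 and 396 CPM in adult and 477 and 475 CPM in aged sections, which formed 3 steps without overlap that were not called (-0.37 ± 0.12 (adjusted p = 0.073) at P21 and 0.26 ± 0.11 (adjusted p = 0.0785) in aged sections, log2). In the STR, its lowest region, aged sections fell to 22.7 and 39.5 CPM from 90.9 and 58.6 CPM in adults (log2 fold change -1.26 ± 0.21, adjusted p = 0.000231). The P21 call in the HY (log2 fold change -0.64 ± 0.09, adjusted p = 0.00613) was lost without P21 replicate 1 (adjusted p = 0.131), P21 replicate 2 (0.0813) or adult replicate 1 (0.0581), and with regions clustered in each section alone (log2 fold change -0.37). Its neighbour Ncan, 2222 bases away, was called at P21 in the CTX, HP and TH too, each time in the opposite direction. A list of 6 genes of parvalbumin interneurons, the neurons that most often bear nets, summed to 532 and 446 CPM at P21, 651 and 516 CPM in adult and 618 and 735 CPM in aged sections in the CTX, with none called at P21 and 2 of 6 called higher in aged sections there. In the TH they summed to 573 and 593 CPM at P21, 829 and 919.8 CPM in adult and 1432 and 1209 CPM in aged sections, with 3 of 5 tested called lower and 1 higher (Cox6a2) at P21 and 2 called higher in aged sections, and their part in the Hapln4 result was not tested.

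Tnr was higher at P21 in the FT, TH and RT. In the FT it measured 279 and 324 CPM at P21, 123 and 115 CPM in adult and 85.5 and 89.4 CPM in aged sections (log2 fold change 1.34 ± 0.10, adjusted p = 4.57e-08 at P21), and the 3 ages lay apart without overlap. The aged values lay below the adult ones there without overlap, by less than 1.5-fold (log2 fold change -0.43 ± 0.11 (adjusted p = 0.00291)). The TH held 165 and 178 CPM at P21, 112 and 103 CPM in adult and 100.2 and 93.2 CPM in aged sections (log2 fold change 0.68 ± 0.08, adjusted p = 0.000385 at P21). In the CTX it measured 166 and 177 CPM at P21, 154 and 148 CPM in adult and 153 and 144 CPM in aged sections, and neither change was called (log2 fold change 0.18 ± 0.08 (adjusted p = 0.11) at P21). The call in the RT (log2 fold change 0.70 ± 0.15, adjusted p = 0.00328) was lost without adult replicate 1 (adjusted p = 0.0527), with DESeq2 (0.0856) and with interior spots only (0.953).

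Tnc was higher at P21 in the CTX and HP, and lower in aged sections of the HP and FT. In the TH, its region of highest level, it measured 30.5 and 32.7 CPM at P21, 44.7 and 29.5 CPM in adult and 19.6 and 53.1 CPM in aged sections, the aged pair spanned all other values and neither change was called (log2 fold change -0.23 ± 0.35 (adjusted p = 0.692) at P21 and -0.02 ± 0.34 (adjusted p = 0.965) in aged sections). In the CTX it measured 8.44 and 9.47 CPM at P21, 3.4 and 4.84 CPM in adult and 2.12 and 2.46 CPM in aged sections (log2 fold change 1.12 ± 0.20, adjusted p = 0.00191 at P21), and the aged comparison was not tested there because too few spots held a UMI. With the detection filter dropped (filterByExpr alone), Tnc was tested in all 7 aged regions and was also called lower in the CTX (-0.83 ± 0.21 (adjusted p = 0.00756), log2) and STR (-1.45 ± 0.41 (adjusted p = 0.0128)). In the HP it measured 15.0 and 19.3 CPM at P21, 7.06 and 6.28 CPM in adult and 1.71 and 3.54 CPM in aged sections, 3 steps without overlap (log2 fold change 1.33 ± 0.25 (adjusted p = 0.00416) at P21 and -1.28 ± 0.31 (adjusted p = 0.00925) in aged sections). The P21 call in the HP was lost without P21 replicate 2 (adjusted p = 0.067) or adult replicate 2 (0.0806), and the aged call without adult replicate 1 (0.0772). In the FT, 13.2 and 21.4 CPM at P21, 12.7 and 13.6 CPM in adult and 6.58 and 6.57 CPM in aged sections were measured (log2 fold change -0.99 ± 0.28, adjusted p = 0.00635 in aged sections), and P21 and adult values overlapped.

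In aged vs. adult, 14 of 53 tests were called, 6 higher and 8 lower, against 15.4% of all tests of these regions, 7.8% higher and 7.57% lower. All 6 higher calls were of Hapln2, in every region but the HP. The 8 lower calls were of Ncan (FT, HY and RT), Hapln1 (TH and HY), Tnc (HP and FT) and Hapln4 (STR). By region, the FT had 3 of 8 tested genes called (29.1% of all genes there), the HY 3 of 7 (11.6%), the RT 2 of 8 (17.2%), the TH 2 of 8 (13.8%), the STR 2 of 7 (14.1%), the HP 1 of 8 (11.9%) and the CTX 1 of 7 (10.2%). With 7 or 8 tested genes in a region, 1 call moves such a share widely. The median log2 fold change of the tested genes lay between -0.31 and 0.09 in the 7 regions, against -0.03 to 0.01 over all genes.

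Whether the change with age differed between regions was tested in a second edgeR fit of 6 regions (all but the RT), with the section as a block, which absorbs what acts on a gene alike throughout a section. In P21 vs. adult, 4 of the 8 genes differed between regions, Tnr, Tnc, Hapln2 and Ncan, against 11.1% of all genes. For Tnr (adjusted p = 1.9e-05), the log2 fold change at P21 was larger in the FT than in the CTX by 1.12 ± 0.12 (adjusted p = 1.2e-06). For Tnc, the change in the TH differed from that in the CTX by -1.38 ± 0.31 (adjusted p = 0.0165). For Hapln2, the change in the HY differed from that in the CTX by -0.96 ± 0.22 (adjusted p = 0.0187). This depends on how the HY was drawn, since its P21 change was -0.25 with regions clustered in each section alone. The region-by-age test was not repeated with those regions. The count depended on single sections, with 2 of 8 called without P21 replicate 1, 1 of 8 without P21 replicate 2, adult replicate 1 or adult replicate 2, and 7 of 8 without either aged section. Tnr was called with each 1 section left out (adjusted p at most 0.00632), but not without the FT (0.0702), where 2 of 8 were called.

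In aged vs. adult, 4 of 8 differed between regions, Hapln2, Ncan, Hapln4 and Hapln1, against 47.7% of all genes, so that the count itself matches the background. The rise of Hapln2 was larger in the FT than in the CTX by 1.10 ± 0.18 (adjusted p = 2.23e-05) and larger in the STR by 0.94 ± 0.21 (adjusted p = 0.0102). The fall of Ncan was deeper in the FT than in the CTX (-0.77 ± 0.13 (adjusted p = 3.59e-05), FT minus CTX), and deeper in the HY (-0.50 ± 0.11 (adjusted p = 0.00714)). The fall of Hapln1 in the TH differed from its change in the CTX by -1.34 ± 0.30 (adjusted p = 0.00349), and that of Hapln4 in the STR by -0.97 ± 0.27 (adjusted p = 0.037). Across its regions, Hapln4 was not called without adult replicate 1 (adjusted p = 0.196), nor Hapln1 without adult replicate 2 (0.103).

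Within the HP, 4 clusters were named CA1-2, CA3, dentate gyrus (DG) and matrix, the last rich in astrocyte genes. Bcan, Vcan, Hapln1 and Hapln2 were highest in the matrix in 6 of 6 sections, at 483 ± 52.5 CPM, 32.9 ± 7.62 CPM, 41.1 ± 7.62 CPM and 39.5 ± 20.1 CPM. Hapln4 was highest in CA3 in 6 of 6 sections (347 ± 88.6 CPM) and lowest in the DG in 6 of 6 (45.3 ± 13.0 CPM). Tnr was highest in the DG in 6 of 6 (237 ± 19.8 CPM) and lowest in CA3 in 5 of 6 (135 ± 18.9 CPM). Acan was highest in the DG in 4 of 6 sections, with 26.6 and 24.8 CPM at P21, 14.7 and 9.23 CPM in adult and 12.8 and 8.60 CPM in aged sections, and in both aged sections CA3 stood above the DG, with 8.39 and 6.16 CPM at P21, 3.44 and 7.45 CPM in adult and 17.9 and 14.5 CPM in aged sections.

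Within the CTX, Acan was highest in the middle layers in 6 of 6 sections (6.79 ± 1.11 CPM), and Hapln4 in 5 of 6 (211 ± 76.9 CPM). The middle layers were the lowest cortical part for Tnr in 6 of 6 (138 ± 13.6 CPM). Hapln2 was highest in the deep layers in 6 of 6 (28.5 ± 14.1 CPM) and lowest in the upper layers in 6 of 6 (8.2 ± 1.80 CPM). Tnc was highest in the piriform and amygdalar part in 6 of 6 (9.82 ± 4.39 CPM).

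Across the 8 subregions, 28 of 61 tests were called at P21, 19 higher and 9 lower, against 5.06% of all tests, 3.33% higher and 1.73% lower. Without P21 replicate 1 the count was 12, and 10 of the 28 calls were kept with each 1 section left out. The change with the greatest log2 fold was that of Tnc in the DG, the site of postnatal neurogenesis, with 26.6 and 26.9 CPM at P21, 4.67 and 4.92 CPM in adult and 0.799 and 2.55 CPM in aged sections (log2 fold change 2.46 ± 0.40, adjusted p = 0.000507 at P21). Sums over the DG held only 913132 to 3152741 UMIs per section, so these adult and aged values rest on few UMIs of Tnc. Both P21 values lay far above all others there, and without P21 replicate 1 the adjusted p was 0.0507. Tnc in the upper cortical layers measured 11 and 10.9 CPM at P21, 2.11 and 2.82 CPM in adult and 0.772 and 1.91 CPM in aged sections (log2 fold change 2.17 ± 0.43, adjusted p = 0.00141), a call lost without P21 replicate 1 (adjusted p = 0.0507) or adult replicate 1 (0.0523). Hapln4 in CA1-2 measured 59.1 and 50.3 CPM at P21, 177 and 169 CPM in adult and 198 and 149 CPM in aged sections (log2 fold change -1.62 ± 0.19, adjusted p = 2.48e-06 at P21), a call kept with each 1 section left out. In CA3 it measured 219 and 254 CPM at P21, 393 and 436 CPM in adult and 378 and 404 CPM in aged sections (log2 fold change -0.84 ± 0.12, adjusted p = 3.9e-05), a call lost without P21 replicate 1 (adjusted p = 0.0675). Bcan was called higher at P21 in CA3 (log2 fold change 0.75 ± 0.14 (adjusted p = 0.00117)) and the DG (0.83 ± 0.16 (adjusted p = 0.00193)), its lowest parts of the HP. Both calls were lost without P21 replicate 1 (adjusted p = 0.467 and 0.0543) or adult replicate 2 (0.167 and 0.0876).

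In aged vs. adult, 5 of 58 subregion tests were called, 4 higher and 1 lower, against 10.6% of all tests, 6.28% higher and 4.34% lower, so that the share was below the background. Without adult replicate 2 the count was 2. Hapln2 was called in the hippocampal matrix, with 20.3 and 23.1 CPM at P21, 31.6 and 33.3 CPM in adult and 69.2 and 59.6 CPM in aged sections (log2 fold change 0.99 ± 0.16, adjusted p = 4.53e-05 in aged sections), and this call was kept with each 1 section left out. In the middle layers of the CTX its log2 fold change was 0.79 ± 0.16 (adjusted p = 0.00362). In the deep layers it measured 16.6 and 11.9 CPM at P21, 30.4 and 23.0 CPM in adult and 41.5 and 47.7 CPM in aged sections (log2 fold change 0.74 ± 0.15, adjusted p = 0.000544), and without adult replicate 2 the change was 0.55, under 1.5-fold. Vcan in the matrix measured 39.7 and 38.7 CPM at P21, 26.1 and 21.2 CPM in adult and 34.1 and 37.9 CPM in aged sections (log2 fold change 0.61 ± 0.19, adjusted p = 0.015 in aged sections), a call lost without adult replicate 2 (adjusted p = 0.172) or aged replicate 2 (0.0788). The lower call was that of Tnc in the piriform and amygdalar part (log2 fold change -0.67 ± 0.25, adjusted p = 0.0345), lost without any 1 of P21 replicate 1, P21 replicate 2, adult replicate 2 and aged replicate 1 (adjusted p 0.0596 to 0.48).

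With the detection filter dropped, Acan was called in 3 subregions. In CA3 it was higher in aged sections (log2 fold change 1.51 ± 0.38, adjusted p = 0.00704), which was lost without adult replicate 1 (adjusted p = 0.17). In the DG it was higher at P21 (log2 fold change 1.12 ± 0.33, adjusted p = 0.0319), which was lost without any P21 or adult section (0.0589 to 0.322). In the upper layers of the CTX it was higher in aged sections (log2 fold change 1.42 ± 0.52, adjusted p = 0.0486), which was lost without any 1 section other than aged replicate 2 (0.0632 to 0.352).

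Of 97 further genes of the net pathway, 96 were in the files and 73 could be tested in at least 1 region. In P21 vs. adult, 43 of 488 tests were called higher and 9 lower, beside 3.53% and 2.08% of all tests. In aged vs. adult, 22 of 484 were called higher and 96 lower, beside 7.8% and 7.57%. The counts of each group below are to be read beside these same shares, and a count near them is no result about the group. Without P21 replicate 1 the P21 calls numbered 34. Of lectican-cleaving and other matrix proteases, 14 of 64 tests were called higher and 1 lower at P21, and the 14 were of Adamts4 (7), Mmp15 (4) and Adamts15 (3). Adamts4, an aggrecanase made by oligodendrocytes, was higher in all 7 regions, by 1.01 to 1.84 on the log2 scale. In the FT it measured 205 ± 46.7 CPM at P21, 79.3 ± 3.24 CPM in adult and 103 ± 5.03 CPM in aged sections (log2 fold change 1.35 ± 0.13, adjusted p = 6.36e-07 at P21). The membrane protease Mmp15 was higher in 4 regions (mean log2 fold change 0.69).

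Among factors that bind to nets, 7 of 42 tests were called higher at P21 and 24 of 42 lower in aged sections, beside 3.53% and 7.57% over all genes. Sema3a, a guidance cue held in the nets, was lower in 6 aged regions (mean log2 fold change -1.45), and the neuronal pentraxin Nptx2 in 5 (-1.59). At P21 Nptx2 was higher in 5 regions (1.15). Nptx1 and the pentraxin receptor Nptxr were each lower in 4 aged regions (-1.14 and -0.78). In the CTX, Nptx2 measured 50.2 ± 3.74 CPM at P21, 23.5 ± 2.26 CPM in adult and 12.7 ± 5.43 CPM in aged sections.

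Receptors for chondroitin sulfate and tenascins were listed together with related receptors. Of their 66 tests, 7 were called higher and 2 lower at P21, and 1 higher and 17 lower in aged sections. The shares over all genes were 3.53% and 2.08% at P21, and 7.8% and 7.57% in aged sections. Rtn4rl2 and Rtn4r, of the Nogo receptor family, were lower in 5 and 4 aged regions (mean log2 fold change -1.96 and -1.30). Rtn4rl1 of the same family was lower in 2 (-0.45), and the receptor phosphatase Ptprd in 4 (-0.53). At P21 the integrin Itgb1 was higher in 5 regions (0.76), and Itga8 was lower in 2 of the 3 tested (-0.78).

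Genes that build the chondroitin sulfate chains were called once at P21, lower (Csgalnact1), and 18 times in 77 tests in aged sections, all lower. Over all genes, 2.08% of tests were called lower at P21 and 7.57% in aged sections. The chain polymerase Chsy3, the linker enzyme B3galt6 and Csgalnact1, which starts the chain, were lower in 4 aged regions each (mean log2 fold change -0.97, -0.61 and -0.57). Of the sulfotransferases, 2 of 37 tests were higher at P21, and 1 of 40 was higher and 5 lower in aged sections. The shares over all genes were 3.53% higher at P21, and 7.8% higher and 7.57% lower in aged sections. Ust, which sulfates the uronic acid of the chain, was higher in 2 regions at P21 and lower in 3 aged regions.

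Other brain proteoglycans gave 7 higher and 3 lower calls in 133 tests at P21, and 8 higher and 21 lower in 127 aged tests. For this and the other groups of the paragraph, the shares over all genes were 3.53% higher and 2.08% lower at P21. In aged sections they were 7.8% and 7.57%. Cspg5 (neuroglycan C) was lower in all 7 aged regions (mean log2 fold change -0.82), and Sdc4, a syndecan, higher in all 7 (0.92). The basement membrane proteoglycan Hspg2 was higher at P21 in 4 regions (1.06), and Fmod was lower in both aged regions where it was tested. Of hyaluronan receptors and degrading enzymes, 4 of 20 tests were higher and 1 lower at P21, and 4 higher and 2 lower in aged sections. Cd44, the cell surface receptor of hyaluronan, was higher in 3 aged regions. Among 4 channel genes of net-bearing neurons, 1 of 28 tests was lower at P21 (Kcnc1) and 6 were higher in aged sections, 2 of them of Kcnab2. The 3 protease inhibitors gave 2 higher calls at P21 and 1 lower in aged sections, all of Timp2. The proteases in aged sections gave 2 higher and 8 lower calls, Mmp17 being lower in 4 regions (-0.91).

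For 8 of the 9 genes, the most similar profiles are given over the 42 sums of 6 sections and 7 regions, as Pearson's r of log2(CPM + 1) (description only, since the sums share sections, regions and depth). Hapln2 was most like Anln (0.98), Tnfaip6 (0.97) and Apod (0.97), Vcan like Tspan15 (0.94), Npc2 (0.93) and Elovl1 (0.93), and Bcan like Klhl5 (0.91), Soga1 (0.88) and Metrn (0.88). Ncan was most like Cbx6 (0.92), Vps37b (0.90) and Atf6b (0.89), and Hapln4 like Slc8a1 (0.90), Efr3a (0.89) and Tstd3 (0.88). Hapln1 was most like Robo2 (0.87), Sema3e (0.83) and Eepd1 (0.83), Acan like Hs3st4 (0.87), Zfpm2 (0.82) and Slc44a5 (0.82), and Tnc like Sh3d19 (0.87), Gpr4 (0.85) and Ctr9 (0.85). Among the 9 genes themselves, the closest profiles were those of Ncan and Tnr (0.83) and of Bcan and Vcan (0.82), and the most opposed were those of Ncan and Hapln2 (-0.78). Acan was closest to Hapln1 (0.67) and Hapln4 (0.57), which share its peak in the RT.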

How the data were processed

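The authors fixed blocks of brain in formalin, embedded them in paraffin and cut coronal sections from them. To these they hybridised 10x Genomics mouse probes. They made the deposited UMI counts per gene and spot with Space Ranger on mm10. The deposited file headers give version 2.0.0 (P21, adult) or 3.1.1 (aged). The paper describes the probe design of the aged libraries as enhanced. The labels' processing notes name 2.1.0 and Seurat 5.1.0. The deposited spatial enrichment tables give each gene a score, Moran's I, which was copied and not recomputed. Depth is given in the report.

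Spots with under 250 genes or 500 UMIs were left out, which removed 1 to 4 spots per section. Clustering used 3000 variable genes, 10 principal components and Leiden at resolution 0.4 (leidenalg 0.10.2), with 151 genes kept out, and gave 15 clusters. Those kept out were the members, the pathway genes and the cell type lists other than that of mature oligodendrocytes. A cluster was named where 1 marker panel reached a mean standardized score of 0.2 and led the next panel by 0.2. Spots of 2 unnamed clusters (5.21%) and of the meninges and large vessels entered no region. The authors' Harmony integration and manual annotation were not repeated, and tissue images were not used here.

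Counts were summed per section and region. edgeR 4.0.16 (R 4.3.3; TMM, glmQLFit, glmQLFTest) fitted the 6 sums of a region together, with no term but age. Tested genes passed filterByExpr and the authors' detection limits, over 10% of a region's spots at 1 of the ages compared and 10% or more of all spots. The threshold was an adjusted p of 0.05 (Benjamini-Hochberg) and a 1.5-fold change. Standard errors are the log2 fold change divided by the square root of F. Replicates are sections of different mice, and spots are not replicates. The members and the lists of pathway and cell type genes were chosen with earlier results of these data known. Of the pathway list, genes called in 1 direction in at least 4 regions were named, and in each group the called gene with the greatest mean absolute change. The genes most similar in profile to Tnr are not reported here. The fits were tested on simulated data. DESeq2 1.42.0, other scalings, filters and clusterings, thinned counts, a replicate block and left-out sections served as alternatives.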

Additional observations from a re-analysis of the deposited data

Results flagged for a closer look

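In 8 cases the change with age of one of these genes differed among 6 regions, all but the RT, by the region-by-age test of edgeR with the section as a block. Between P21 and adult sections the adjusted p was 1.9e-05 for Tnr, 0.0128 for Tnc, 0.0149 for Hapln2 and 0.023 for Ncan. Of these, only Tnr kept its call with each 1 section left out. For Ncan, no single region differed from the CTX at an adjusted p under 0.05 in the same fit (smallest 0.0899, in the FT). Between aged and adult sections it was 1.24e-05 for Hapln2, 4.7e-05 for Ncan, 0.00159 for Hapln4 and 0.00715 for Hapln1. The same test passed 11.1% of all genes in the first comparison and 47.7% in the second. It was not repeated with regions drawn by other clusterings.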

How the results depend on the processing

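None of the 45 called fold changes turned its sign in 668 values under the alternatives, of which 556 kept the call and 112 lost it. Part of these values could hardly turn. A test against 1.5-fold uses the same fitted change, and leaving out a section of the age not compared keeps both compared groups whole. The whole-section value of a gene also enters once for each region in which it was called. With a test against 1.5-fold itself (glmTreat), 7 of the P21 calls and 6 of the aged calls in regions passed. Fitted on whole sections, 5 of 8 tested genes were called at P21 and 2 of 8 in aged sections. In subregions, aged calls numbered 3 of 58 tests with DESeq2 and 9 of 68 with filterByExpr alone, which tested more genes. With filterByExpr alone, 6.5% to 15.1% of all genes were called in aged vs. adult, depending on the subregion. Without the FT, the region-by-age test called 2 genes at P21. With 1 section left out, calls numbered 23 to 33 at P21 and 12 to 15 in aged sections for regions, 12 to 30 and 2 to 7 for subregions, 34 to 58 and 97 to 126 for pathway genes, and 1 to 7 and 3 to 5 for the region-by-age test. DESeq2 called 25 of 56 and 13 of 53 tests in regions. For settings other than the main one and filterByExpr alone, no share over all genes is given. Those counts show only how far the calls depend on the processing.

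Replicate numbers name sections of different mice. The deviations of equally numbered sections correlated at 0.02 (P21 and adult), -0.04 (P21 and aged) and -0.17 (adult and aged) over 18104 genes. With the replicate number as a block, 31 and 13 tests were called in regions, 27 and 5 in subregions, and 50 and 117 of pathway genes. With the numbers of the aged sections exchanged, a block chosen after seeing the data, the counts were 33, 14, 28, 5, 54 and 122. Plain CPM differed from TMM-scaled CPM by at most 1.06-fold, and the region of highest level was the same for 8 of 9 genes, Ncan passing from the CTX to the HP.

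With 2 sections per age, only the spread between these mice is measured. Depth limits Acan, the RT and the low levels of Tnc in subregions. In the RT, single sections held as few as 4 UMIs of Acan. Slide version and tissue transfer coincide with age in aged vs. adult, and the region-by-age test absorbs them only where they act alike throughout a section.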

Other observations

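Outside the regions compared, 2 groups of spots held high levels of single members and are given as values with no test. In the spots named as meninges and large vessels, which lie along the brain surface and so include its outermost tissue, Bcan measured 592 and 634 CPM at P21, 520.2 and 551 CPM in adult and 531 and 576 CPM in aged sections. In the unnamed cluster led by Ttr, a gene of the choroid plexus, together with Ecrg4, Clic6 and Enpp2, Hapln2 measured 39.95 and 50.3 CPM at P21, 96.3 and 94.5 CPM in adult and 241 and 334 CPM in aged sections, with the 3 ages apart in the same order as in the FT. The marker panels of the ventricular system and of the fiber tracts scored nearly alike in that cluster, at 1.42 and 1.36, which is why it was left unnamed.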
